A study of Oryza sativa with 9 samples.

Results

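The leaf of wild-type (WT) rice, Oryza sativa, labelled as sampled 85 days after sowing, was described here from its absolute transcript levels. The 3 libraries labelled WT were taken by their genotype label out of the 9 libraries of a study of OsCOMT, a caffeic acid O-methyltransferase of lignin and melatonin synthesis. The study holds 3 genotypes with 3 libraries each, an overexpressing line, a mutant and this WT, and only WT values are given here, with no contrast between genotypes. The labels name no transgene, mutation or treatment for the WT plants. Their titles hold a number that differs from the age label, and that number is not explained. The labels do not give a cultivar, the leaf sampled, the hour of sampling or whether the replicates were separate plants, so the spread below is that between these samples and may be technical.

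A rice leaf is built mostly of mesophyll cells, whose chloroplasts capture light with chlorophyll-binding antenna proteins and pass it to photosystems I and II. The energy drives carbon fixation by rubisco and the Calvin cycle, and photorespiration salvages the product of rubisco's side reaction with oxygen. As a leaf ages, chlorophyll is taken apart by a dedicated pathway, plastid proteins are broken down by proteases, and nitrogen is exported, largely after conversion to glutamine.

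The authors deposited FPKM values, reads scaled to gene length and to the library total, so levels of different genes are compared below per length. The values resolved into whole reads, with totals of 11451237, 11727127 and 11244242 reads in WT replicates 1, 2 and 3. Of the 37858 genes in the table, 27975 were above 0 in at least 1 WT library and 24243 in all 3. A mean of at least 1 FPKM was reached by 19592 genes, at least 10 FPKM by 11442, at least 100 FPKM by 1076 and at least 1000 FPKM by 35. The median gene above 0 stood at 7.10, 7.08 and 7.23 FPKM in replicates 1 to 3. Across the 11442 genes averaging 10 FPKM or more, Pearson's r of log2(FPKM + 1) was 0.981 between replicates 1 and 2, 0.964 between 1 and 3 and 0.971 between 2 and 3. These are correlations across genes, which are not independent replicates.

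Markers of the leaf and of other tissues were read first, to check the label. Of the mesophyll markers with a checked name, CAB1R, a chlorophyll a/b-binding antenna protein of photosystem II, had 2355, 2365 and 2347 FPKM in replicates 1, 2 and 3. CAB2R, a second such antenna gene, had 1049, 1794 and 463 FPKM. The activase of rubisco, RCAA1, had 193, 184 and 198 FPKM, and the glycolate oxidase GLO1, a photorespiratory enzyme, had 206, 189 and 171 FPKM. All 5 named mesophyll markers were present in every library, the lowest being RBCS-A with a mean of 30.5 FPKM.

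The secondary wall cellulose synthases CESA4, CESA7 and CESA9, which build the walls of xylem and fibres, were together at 0.175, 0.172 and 0.0257 FPKM, and CESA7 had no read. The meristem homeobox gene OSH1 and the root silicon exporter LSI2 had no read either. A count of 0 over the 34364092 reads in genes of the 3 libraries allows up to 3 reads, for counting error only. The root silicon importer LSI1 was above this, with 13.5, 8.48 and 7.83 FPKM, and the seed storage glutelin GluA2 had 5.89, 7.78 and 8.57 FPKM. The mitotic cyclin CYCB1;1 had 1 read in the 3 libraries, while the replication clamp PCNA had 18.5, 23.3 and 19.4 FPKM. For the phloem, the sucrose transporter SUT1 had 56.5, 65.2 and 46.4 FPKM, and the sugar exporters SWEET13 and SWEET14 averaged 11.5 ± 1.68 and 7.13 ± 0.974 FPKM (SD, n = 3). By most of these markers the tissue label held. Mesophyll genes other than RBCS-A were high, phloem genes were present, and those of meristem, mitosis and secondary wall were at or near 0. RBCS-A, at a mean of 30.5 FPKM, stood below the phloem gene SUT1. The root gene LSI1, the replication gene PCNA and the 2 named seed genes were above 0, the lower seed gene with a mean of 1.66 FPKM. By mean, LSI1 at 9.92 FPKM and GluA2 at 7.41 FPKM stood above the phloem gene SWEET14. In bulk leaf tissue, fewer cells of a type and less RNA per cell cannot be told apart.

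The summed FPKM was concentrated in few genes. The 10 highest genes held 5.20%, 5.30% and 5.19% of the sum in replicates 1, 2 and 3, and a mean of 2.75% of the reads. The 200 highest by mean FPKM, which are 0.528% of the table, held 23.4%, 23.0% and 22.2% of it, a mean of 22.9% ± 0.591 (SD, n = 3). The 1000 highest held 42.4% ± 0.542. It took 1504, 1545 and 1569 genes of a library's own ranking to reach 50% of the sum, and 9185 to 9311 genes to reach 90%. Gene 200 by mean stood at 284.06 FPKM and the next gene at 283.98 FPKM, so the edge of this set is not a step in level.

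**Figure D1:**
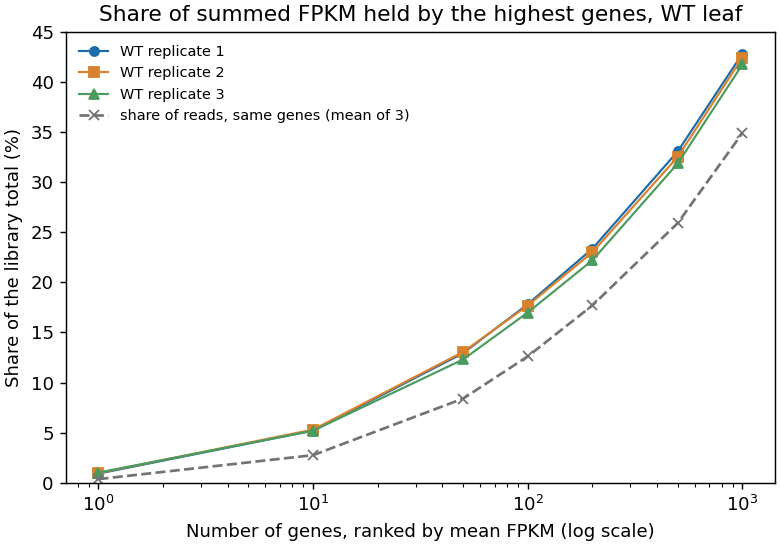
Cumulative share of each WT library's summed FPKM (y axis, percent) held by the highest genes ranked by mean FPKM (x axis, log scale), with 1 line per replicate and a dashed line for the mean share of reads of the same genes. The 3 libraries lie close together, at 22.2% to 23.4% for the 200 highest genes, and the same genes take a smaller share of the reads, 17.7%.

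Of each library's own 200 highest genes, 164 were common to all 3. Replicates 1 and 2 shared 181, replicates 2 and 3 shared 178 and replicates 1 and 3 shared 167. The 200 highest genes were shorter than most, with a median length of 1123 bases against 1568.5 bases for genes averaging 1 FPKM or more. Because FPKM divides by length, these genes held only 17.7% ± 0.406 of the reads, and 138 of them were also among the 200 genes with most reads. Chromosome 7 held 26 of the 200 and 7.58% of the genes of the table, chromosome 1 held 30 and 13.9%, and chromosome 10 held 2 and 5.59%.

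The highest gene of the table, Os01g0200700, had 5842, 6238 and 6504 FPKM, which is 0.953% ± 0.053 of the summed FPKM and 0.351% ± 0.0189 of the reads (SD, n = 3). Os07g0529600 came next, with 3945, 4148 and 3930 FPKM. Neither identifier could be paired with a name that met the check against the RefSeq gene table, and no role is given for them. In all, 67 of the 238 genes placed in 37 lists by general knowledge were among the 200 highest, which are 0.528% of the table. Of the 67, 29 carry a name that met the check. The genes and lists were chosen with earlier results of these data known, so these counts are not independent of the levels. All 238 listed genes held 12.04% ± 0.698 of the summed FPKM.

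Among the 29 named genes, the highest were LIR1 and the antenna gene CAB1R, with the translation factor GOS2 next at rank 21. LIR1, a light-induced chloroplast protein, ranked 5 with 3673, 3912 and 2826 FPKM in replicates 1 to 3, lowest in replicate 3. CAB1R ranked 8, and its highest library was 1.01-fold its lowest. The antenna gene RCABP89 had 1009, 990 and 826 FPKM. CAB2R ranked 33 by mean but spanned 3.87-fold between libraries, so its rank rests on which libraries are averaged.

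Electron transport and photosystem subunits among the 29 ranked from 36 to 199, with genes of other lists between them. PETC, the Rieske protein of the cytochrome b6f complex, had 1005, 936 and 1010 FPKM. Plastocyanin, encoded by PETE, which carries electrons to photosystem I, had 816, 729 and 630 FPKM. PSBW, a small photosystem II subunit, had 763, 642 and 553 FPKM. PETC was even across libraries, while PETE and PSBW were both highest in replicate 1 and lowest in replicate 3. The photosystem I subunit PSAH had 604, 564 and 371 FPKM. OEE3, a protein of the oxygen-evolving complex, had 346, 343 and 165 FPKM and ranked 199, just inside the set. The replicate 3 value of both was set apart below those of replicates 1 and 2. Lower in the same lists stood the ferredoxin ADI1 at 151 ± 13.1 FPKM and the ferredoxin-NADP reductase LFNR1 at 28.5 ± 2.86 FPKM (SD, n = 3).

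As lists, the 5 groups of antenna, photosystem and electron transport genes had 35 members, all with a mean of at least 10 FPKM, and 23 of them were among the 200 highest. They held 3.67%, 3.55% and 2.66% of the summed FPKM in replicates 1, 2 and 3. With rubisco, the Calvin cycle and photorespiration added, 63 members held 4.996%, 4.68% and 3.86%. The photosystem II antenna list alone held 0.991% ± 0.182 of the sum. Most members of these lists do not carry a checked name, so their share rests on general knowledge of which identifiers belong to them.

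By summed FPKM, the rubisco and Calvin cycle lists held 0.094% and 0.383% of the total. Each antenna and photosystem list held more, 0.616% to 0.991%, while the electron transport list held 0.293%, less than the Calvin cycle. By reads the order was partly different, with 0.407% in the Calvin cycle and 0.344% in the photosystem I subunits. None of the 6 rubisco genes was among the 200 highest. The small subunit gene RBCS-A had 45.7, 25.5 and 20.2 FPKM, and the list of small subunits and activase summed to 694, 588 and 552 FPKM. Rubisco small subunits are a family of near-identical copies, and how the authors' counting shared reads among them is not given in the sources used here, so these levels are uncertain. The same holds for the antenna genes CAB1R and CAB2R, the metallothioneins and the cytosolic ascorbate peroxidases, whose copies are also much alike. Of the Calvin cycle, 4 of 10 members were among the 200 highest. The named ones stood just below: the plastid aldolase ALDP had 308, 237 and 269 FPKM, the epimerase RPE had 248, 238 and 239 FPKM, and the bisphosphatase FBPase had 227, 208 and 217 FPKM. In photorespiration, 3 of 12 members were among the 200 highest, and the glycolate oxidases GLO1, GLO4 and GLO5 averaged 188 ± 17.5, 124 ± 13.7 and 95.1 ± 7.44 FPKM, whereas GLO3 averaged 1.74 ± 0.671 FPKM (SD, n = 3). The H protein of glycine decarboxylase, GDCSH, had 69.2, 45.02 and 54.9 FPKM.

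Antioxidant enzymes gave 5 named members to the 200 highest. CatA, a catalase that removes hydrogen peroxide, had 991, 1023 and 492 FPKM. The cytosolic ascorbate peroxidases APX2 and APX1 had 712, 621 and 759 FPKM and 322, 306 and 321 FPKM. The thioredoxin TRXH had 526, 464 and 528 FPKM, and the plastid peroxiredoxin BAS1 had 334, 310 and 365 FPKM. CatA had the widest range of these 5, 2.08-fold, with replicate 3 low, and the other 4 ranged from 1.05-fold to 1.22-fold. The superoxide dismutase SODCC1 averaged 223 ± 28.7 FPKM, and the thylakoid ascorbate peroxidase APX8, the lowest of the 11, 86.8 ± 18.3 FPKM. CatB, another catalase, had 118, 122 and 117 FPKM and was among the steadiest named genes.

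Proteases and protein quality control of the plastid were high as well. CLPC2, a plastid Clp chaperone, had 736, 799 and 911 FPKM. The thylakoid proteases FTSH2 and FTSH1, which remove damaged photosystem II protein, had 660, 688 and 798 FPKM and 439, 458 and 603 FPKM. OCI, an inhibitor of cysteine proteases, had 594, 587 and 486 FPKM. The 3 plastid genes were highest in replicate 3 and OCI was lowest there. In all, 6 of 7 members of the protease list were among the 200 highest.

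Other named genes of the 200 highest belong to several pathways. ZEP, the zeaxanthin epoxidase of the xanthophyll cycle, had 734, 730 and 951 FPKM. GOS2, the translation factor eIF1, had 1480, 1404 and 1429 FPKM. MT2A, a metallothionein that binds metal ions, had 765, 822 and 821 FPKM. The first of these was highest in replicate 3, and GOS2 and MT2A were close to even. The plasma membrane proton pump a7 had 399, 408 and 365 FPKM, and SAP8, a zinc finger protein of stress responses, had 303, 300.5 and 289 FPKM. PBZ1, a pathogenesis-related protein of family 10, had 475, 307 and 116 FPKM. Of these, only PBZ1 spread widely, and without replicate 1 it was no longer among the 200 highest.

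Nitrogen assimilation in this leaf was represented among the 200 highest by GS1;1, the cytosolic glutamine synthetase, with 314, 311 and 335 FPKM, and by FdGOGAT, the ferredoxin-dependent glutamate synthase, with 338, 265 and 287 FPKM. The plastid glutamine synthetase GS2 had 188, 148 and 161 FPKM and the second cytosolic form GS1;2 had 14.3, 23.9 and 19.0 FPKM. Cytosolic GS1;1 thus stood above plastid GS2 per length in every library. The nitrate reductase NIA1 was far lower, with 4.33, 4.80 and 6.51 FPKM. Without replicate 1, the list had 1 member in the 200 highest instead of 2.

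Clock genes spanned a wide range of levels. PRR95, a pseudo-response regulator, had 676, 702 and 786 FPKM, and GI, an evening-phased clock protein, had 709, 693 and 697 FPKM. GI also ranked 5 of all genes by reads. PCL1, of the evening complex, had 266, 254 and 240 FPKM, PRR1 averaged 172 ± 7.15 FPKM and PRR73 averaged 80.5 ± 1.55 FPKM (SD, n = 3). CCA1, the morning-phased factor, had 9.01, 6.89 and 9.20 FPKM. The highest library was 1.16-fold the lowest for PRR95 and 1.11-fold for PCL1, and GI and PRR73 were among the 10 steadiest named genes.

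**Figure D2:**
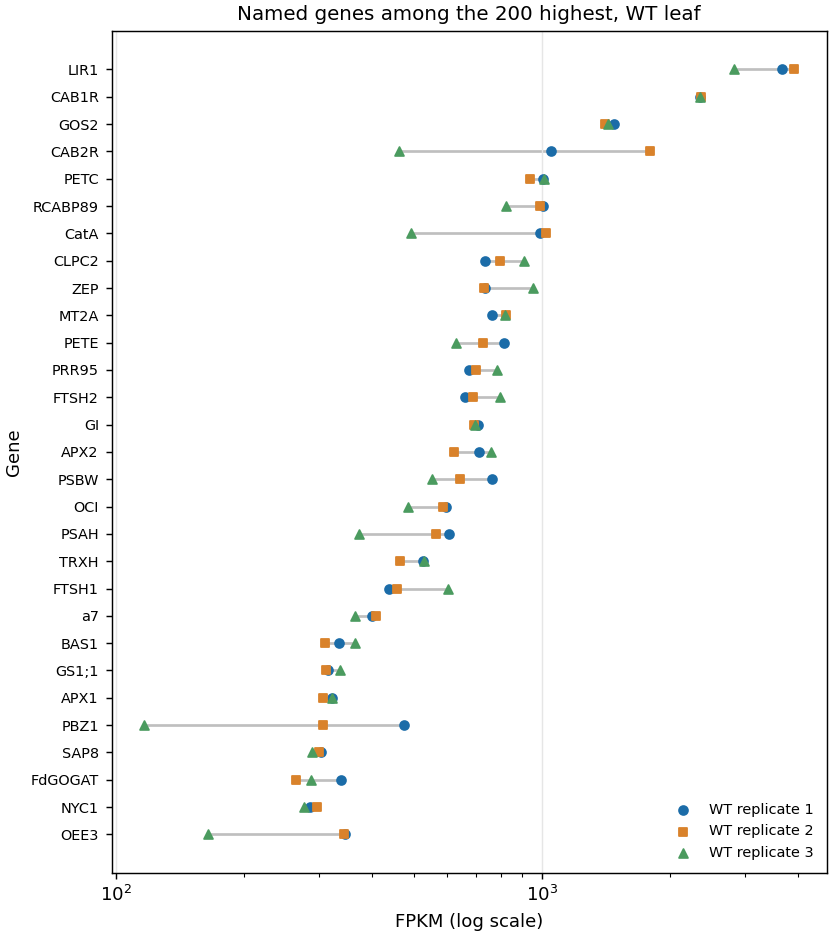
FPKM (x axis, log scale) of the 29 named genes among the 200 highest by mean (y axis, highest at the top), with 1 marker per WT replicate and a grey line from the lowest to the highest. Most genes have their 3 markers close together, while CAB2R, CatA, PBZ1 and OEE3 have replicate 3 far to the left.

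Genes of chlorophyll synthesis and of its breakdown were both present. The highest named synthesis gene, PORB, a light-dependent protochlorophyllide oxidoreductase, had 138, 149 and 133 FPKM. GSA-AT, the aminotransferase that makes aminolevulinate, had 121, 118 and 118 FPKM. The magnesium chelatase subunits CHLI and CHLH averaged 90.6 ± 9.51 and 84.4 ± 4.62 FPKM, and the chlorophyll synthase CHLG averaged 75.8 ± 7.66 FPKM (SD, n = 3). GluTR, glutamyl-tRNA reductase, was the lowest of the 11 members, with 4.80, 4.77 and 4.89 FPKM. No member of the synthesis list was among the 200 highest. In the breakdown list 1 of 7 was, the chlorophyll b reductase NYC1, with 285, 296 and 277 FPKM, and without replicate 2 it was outside the set. Its partner NOL had 26.7, 28.9 and 27.3 FPKM.

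None of the 9 sugar, 6 starch and 9 aquaporin genes listed was among the 200 highest. The triose phosphate exporter TPT averaged 60.6 ± 5.68 FPKM, the sucrose transporters SUT2 and SUT4 averaged 46.5 ± 9.62 and 15.5 ± 0.911 FPKM, and the exporter SWEET11 had no read. In the starch list the branching enzyme SBE1 averaged 37.0 ± 2.0 FPKM and AGPS2, of ADP-glucose pyrophosphorylase, 15.1 ± 0.493 FPKM (SD, n = 3). Aquaporins ranged from the vacuolar TIP1;2, with 259, 167 and 187 FPKM, through the plasma membrane PIP2;7 and PIP1;1, at 192 ± 18.3 and 150 ± 23.3 FPKM, to PIP2;6 at 0.262 ± 0.396 FPKM. OsCOMT itself ranked 261, with 259, 237 and 228 FPKM. In the same list CAD2, a cinnamyl alcohol dehydrogenase, had 111, 111 and 113 FPKM, and the 4-coumarate CoA ligases 4CL3 and 4CL5 averaged 23.4 ± 1.75 and 5.04 ± 0.753 FPKM. OsCOMT was thus the highest of the named lignin genes.

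Genes used as references for normalization differed widely in level. GAPC2 and GAPC1, cytosolic glyceraldehyde-3-phosphate dehydrogenases, averaged 221 ± 18.5 and 205 ± 7.15 FPKM, and the elongation factor REFA1 averaged 158 ± 9.56 FPKM (SD, n = 3). The ubiquitin fusion gene RPS27AA had 155, 211 and 193 FPKM. The actins ACT1 and ACT2 were low, with 2.97, 3.605 and 4.01 FPKM and 1.41, 0.836 and 0.561 FPKM. Of the 143 named genes, 9 had no read in any WT library: the dehydrin RAB21, the phosphate-sensing SPX3, the nicotianamine synthase NAS1, the response regulators RR5 and RR7, and SWEET11, LSI2, CESA7 and OSH1.

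The spread between the 3 libraries was measured as the SD of log2(FPKM + 1) for the same 11442 genes. Its median was 0.11, against 0.06 for the SD that counting error alone would give. In 41.4% of these genes the SD was more than 2 times the counting SD. An SD of at least 0.5 was found in 266 genes, of at least 1 in 41 and of at least 2 in 4. The median SD changed little with level, from 0.12 in the 3858 genes of 10 to 20 FPKM to 0.13 in the 177 genes of 300 FPKM or more, while the counting SD fell to 0.02. At high level the counting SD was thus a small part of the spread.

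**Figure D3:**
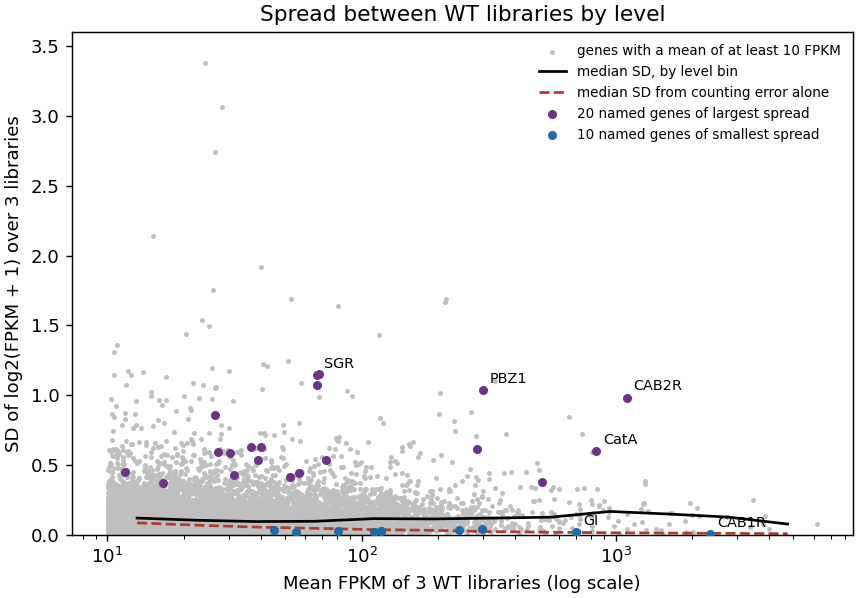
SD of log2(FPKM + 1) over the 3 WT libraries (y axis) against mean FPKM (x axis, log scale), 1 grey point per gene averaging 10 FPKM or more, with the median SD (black line), the median counting SD (dashed line) and named genes of largest and smallest spread in colour. The median SD stays above the counting SD at every level, and CAB2R, at an SD of 0.98, and CAB1R, at 0.01, stand at opposite ends of the range.

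More genes were far apart in pairs that held replicate 3. Of the same 11442 genes, 46 were at least 2-fold apart between replicates 1 and 2, 125 between 2 and 3 and 177 between 1 and 3, on the log2(FPKM + 1) scale. The median absolute difference on that scale was 0.11 between 1 and 2, 0.11 between 2 and 3 and 0.14 between 1 and 3, so by this measure replicates 1 and 3 were about equally far from replicate 2. The 200 genes of largest spread ended at an SD of 0.556, and the next gene had 0.554. Of these 200, 134 were lowest in replicate 3, 45 in replicate 1 and 21 in replicate 2, or 67.0%, 22.5% and 10.5%. Over all 11442 genes, 30.3% were lowest in replicate 3, 41.5% in replicate 1 and 28.2% in replicate 2. In 98 of the 200 the highest library was replicate 1 and the lowest replicate 3. Which genes make up the 200 depends on these libraries: the 200 most variable genes chosen without replicate 3 shared 76 with them, those chosen without replicate 1 shared 128 and those chosen without replicate 2 shared 156. Library totals differed little, and that of replicate 3 was the smallest; its part in the pattern was not tested.

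The 200 most variable genes were not the highest ones. Their median level was 25.1 FPKM, against 27.3 FPKM over the 11442 genes, and 9 of them were among the 200 highest. They were shorter, with a median length of 1064.5 bases against 1551 bases. By length, 66 of the 1715 genes under 800 bases were among them and 18 of the 2242 genes of 2500 bases or more. Over all genes under 800 bases the median deviation of replicate 3 from the gene's mean was 0.01 on the log2 scale, and their median SD was 0.15, against 0.08 for genes of 2500 bases or more. In the order of the table, 22 of the 200, or 11%, stood next to another of them, while 1.18% of the 11442 genes stood next to one of the 200.

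Among identifiers without a checked name, the 4 largest spreads came from genes under 1 FPKM in at least 1 library. Os11g0175450 had 0.383, 0.160 and 72.1 FPKM in replicates 1, 2 and 3, from 7, 3 and 1294 reads. Os12g0628600 had 69.7, 9.25 and 0.581 FPKM. Os08g0240200 had 34.1, 0.0894 and 50.8 FPKM, from 744, 2 and 1090 reads. Os06g0176200 had 24.1, 20.5 and 0.781 FPKM. Replicate 3 was the high library for the first of these and replicate 1 for the second, while replicate 2 was the low one for the third and replicate 3 for the fourth.

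Among the 103 named genes past the same filter, the 20 of largest spread had an SD of 0.37 to 1.15, and 15 of them were lowest in replicate 3. Of all 103, 46 were lowest there, and of the 200 most variable genes of the table, 67.0%. CHT11, a chitinase that degrades fungal walls, had 121, 58.5 and 23.7 FPKM in replicates 1, 2 and 3, an SD of 1.15. PBZ1, given above, had an SD of 1.03, and the chitinase CHT8 had 41.5, 18.6 and 21.8 FPKM. All 3 were highest in replicate 1. The whole pathogenesis-related list of 10 genes summed to 917, 539 and 214 FPKM, of which PBZ1 alone gave 475, 307 and 116 FPKM. Of the 10, 6 passed the filter of 10 FPKM and all 6 were among the 200 most variable, a set that holds 1.75% of all genes past the filter. All 6 were highest in replicate 1 and 5 were lowest in replicate 3, against 27.2% and 30.3% of all genes past the filter. Os12g0628600, 1 of the 6, was above 10 FPKM in replicate 1 only, with 69.7, 9.25 and 0.581 FPKM. It thus passed the filter through the library where it was high. Of the 4 below the filter, 2 were highest in replicate 1 and 2 in replicate 2. Of these 4, 3 were lowest in replicate 3 and 1 in replicate 1.

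In the chlorophyll breakdown list replicate 1 was mostly the lowest library, while 4 members were highest in replicate 2 and 3 in replicate 3. SGR, the magnesium dechelatase that starts the breakdown of chlorophyll a, had 23.2, 62.3 and 115 FPKM, a 4.97-fold range, lowest in replicate 1 and highest in replicate 3. RCCR1, the red chlorophyll catabolite reductase, had 44.9, 87.0 and 84.7 FPKM. Of the 7 members of the list, 6 were lowest in replicate 1 and none was highest there, also with upper-quartile scaling. Quantile normalization gave 5 lowest there. Over all genes past the filter, 41.5% were lowest and 27.2% highest in replicate 1. Of the 4 members with a checked name, 3 were lowest in replicate 1. NYC1 and NOL, given above, stood closer together, with ranges of 1.07-fold and 1.08-fold.

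PORA, a second protochlorophyllide oxidoreductase, had 71.6, 104 and 24.1 FPKM. The other chlorophyll synthesis genes did not share its range. Of the 10 members of that list past the filter, PORA included, 5 were lowest in replicate 3 and 3 were highest there, and the list's median deviation in replicate 3 was -0.04. GLK1, a transcription factor of chloroplast development, had 31.2, 40.8 and 22.1 FPKM. PORA and GLK1 were both highest in replicate 2, as was CAB2R. OEE3 and PSAH had SDs of 0.61 and 0.38. Of the 35 members of the antenna, photosystem and electron transport lists, 29 were lowest in replicate 3, with 27 by quantile normalization. Over all genes past the filter, 30.3% were lowest there. In the electron transport list alone, 2 of 5 were lowest in replicate 3 and 3 in replicate 2. The median SD of the 35 was 0.33 against 0.11 over all genes past the filter. Counting only the 10 members with a checked name, 7 were lowest in replicate 3 and 3, PETC, ADI1 and LFNR1, in replicate 2. CAB1R was among the 7, though its libraries were nearly level, and its SD of 0.01 was the smallest of the named genes past the filter.

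Type-A response regulators are rapidly induced by cytokinin and dampen its signal. RR2 had 52.0, 45.5 and 22.6 FPKM, and RR4 had 52.6, 36.2 and 21.6 FPKM. RR9 had 37.6, 30.2 and 11.6 FPKM, and RR10 had 52.2, 40.8 and 24.7 FPKM. All 4 members of the list with a mean of at least 10 FPKM were highest in replicate 1 and lowest in replicate 3, under each scaling tried. RR9 and RR10 are near-identical copies, so reads may be shared between them. Below the filter the order was mixed: RR6 had 5.96, 3.88 and 1.23 FPKM, and RR1 had 4.49, 3.44 and 3.59 FPKM. Over the 8 members above 0, 5 were lowest in replicate 3, 2 in replicate 2 and 1 in replicate 1, and 2 were highest in replicate 3. CKX4, an oxidase that degrades cytokinin, had 15.9, 11.03 and 8.14 FPKM, whereas its relative CKX11 had 3.22, 13.7 and 7.92 FPKM, lowest in replicate 1.

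**Figure D4:**
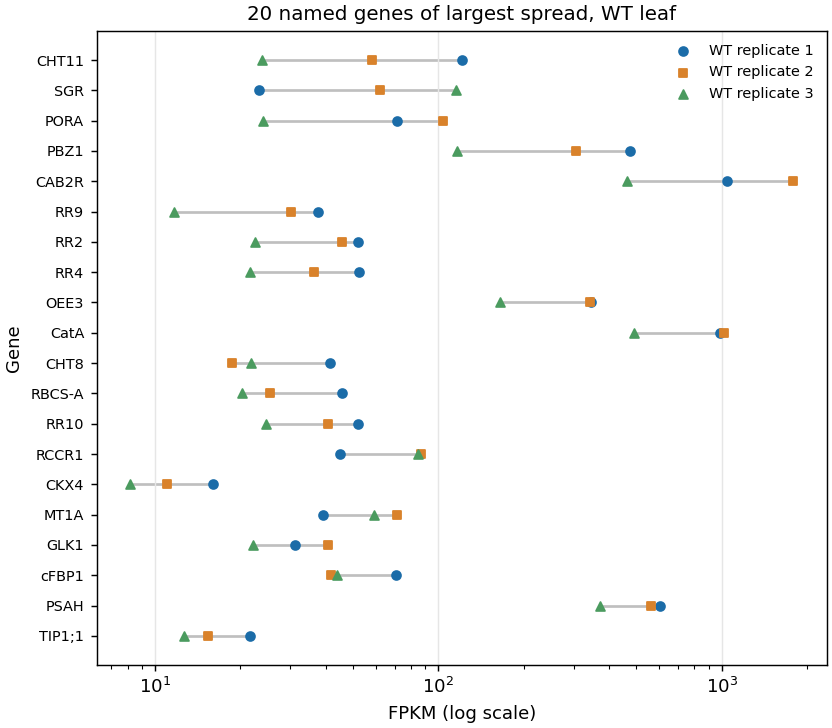
FPKM (x axis, log scale) of the 20 named genes of largest spread (y axis, largest SD at the top), with 1 marker per WT replicate and a grey line from the lowest to the highest. Replicate 3 is the leftmost marker in 15 of the 20 genes, and SGR, RCCR1 and MT1A have replicate 1 leftmost.

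The remaining variable named genes come from several lists. CatA and RBCS-A, given above, had SDs of 0.60 and 0.59. The metallothionein MT1A had 39.0, 71.5 and 59.0 FPKM, and the cytosolic bisphosphatase cFBP1, of sucrose synthesis, had 70.8, 41.6 and 44.0 FPKM. TIP1;1, a vacuolar aquaporin, had 21.6, 15.3 and 12.7 FPKM. Replicate 1 was the lowest library for MT1A and the highest for cFBP1 and TIP1;1.

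The 10 steadiest named genes had means of 45.1 to 2356 FPKM, all above the median of 27.3 FPKM of genes past the filter. After CAB1R they were CAD2, GI, CAO, GSA-AT, PRR73, CatB, RPE, PHYC and SAP8, with SDs of 0.02 to 0.04. CAO, which makes chlorophyll b, had 54.6, 54.5 and 56.0 FPKM, and the phytochrome PHYC had 45.6, 45.9 and 43.8 FPKM. Their counting SDs, 0.03 for both, were about as large as their spread. The housekeeping list summed to 2125, 2171 and 2161 FPKM in replicates 1, 2 and 3.

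**Figure D5:**
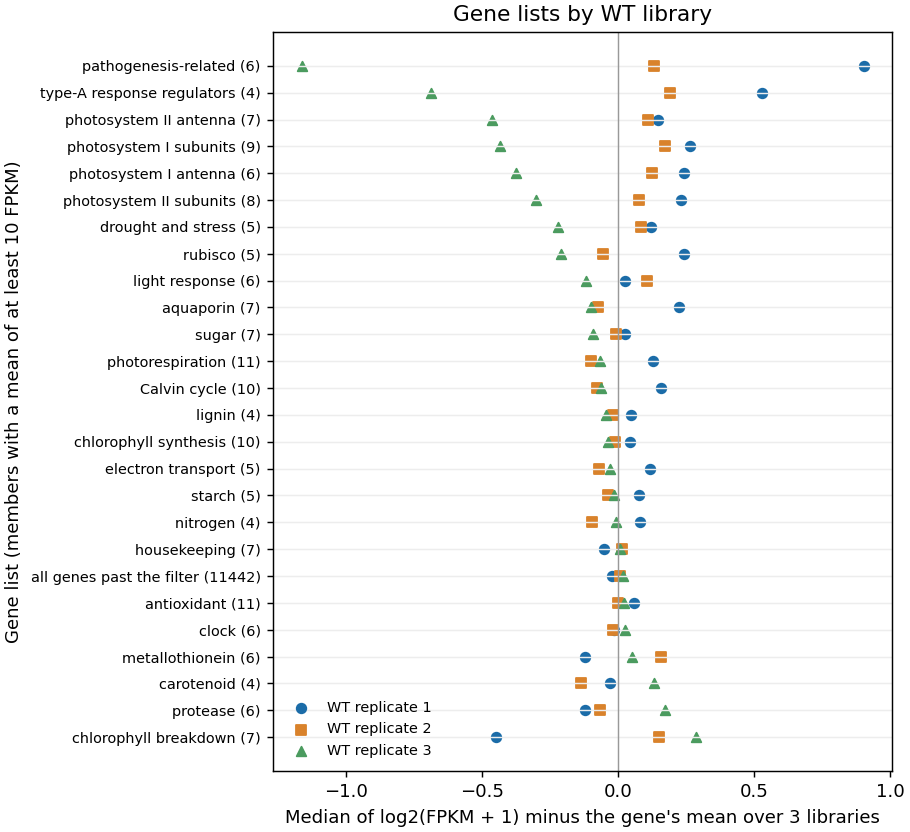
Median deviation of log2(FPKM + 1) from each gene's mean over the 3 WT libraries (x axis), with 1 marker per replicate. The y axis holds gene lists with at least 4 members of at least 10 FPKM (their number in brackets) and all genes past the filter. A mixed list of other genes, with 6 such members, is not shown. Replicate 3 lies to the left for the pathogenesis-related (-1.16), response regulator (-0.69) and antenna and photosystem lists, and to the right for the chlorophyll breakdown list (0.29), while all genes together lie near 0.

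By list, the median deviation of replicate 3 from the gene mean was -1.16 for the pathogenesis-related genes, -0.69 for the type-A response regulators, -0.46 for the photosystem II antenna and -0.43 for the photosystem I subunits. It was 0.29 for chlorophyll breakdown and 0.17 for the protease list. In replicate 1 the same medians were 0.90, 0.53, 0.15, 0.27, -0.45 and -0.12, and over all genes past the filter the 3 replicates stood between -0.02 and 0.02. The lists for the clock, housekeeping and antioxidant genes stayed within 0.06 of 0 in every library. The 3 deviations of a gene sum to 0, so those of different libraries are not independent. The lists named first were chosen as the 4 lowest and the 2 highest medians in replicate 3, among lists with at least 4 members past the filter. The iron storage and chelation list, with 2 such members, had a higher median in replicate 3 than any of them, 0.84. Its 2 members were among the 200 most variable genes.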

How the data were processed

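Leaf RNA libraries were made with an Illumina TruSeq kit, per the labels' protocols. Bowtie 0.12.2, Cuffdiff and the build IRGSP-1.0 are listed, with no role, per the submitters' processing notes. The authors deposited FPKM values per gene, and 1 further per-sample column of the table matched no sample and was not used. All 30062 genes above 0 in any library gave whole read numbers (relative error under 1e-06), and 99.96% then had a length within 0.02 bases of a whole number.

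Only the 3 WT libraries were described, with Python 3.11.15, numpy 2.4.6 and pandas 2.3.3, by ranks, shares, means with SD, and the SD of log2(FPKM + 1) for genes averaging 10 FPKM or more. Depth in reads per WT library is given with the first results. Figures used matplotlib 3.10.9. The SD from counting error treats reads as Poisson. With 1 group there was no test. Alternatives changed the ranking unit, thresholds, pseudocount, scaling, measure of spread and libraries kept. Simulated libraries were used to check the recovery of reads and of variable genes.

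The genes and lists were chosen with earlier results of these data known. The files do not pair identifiers with names. Of 238 pairs from general knowledge, 143 met a check: the RefSeq table of assembly ASM3414082v1 holds that name or an alias on the same chromosome within 0.03 of the same relative rank. Only 1 identifier matched that table directly. List counts include the other pairs, which are not named. Named were up to 6 members of highest mean and the lowest per list, all named genes in the 200 highest, the 20 of largest and 10 of smallest spread, tissue markers, OsCOMT, and 2 unnamed identifiers per pattern.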

Additional observations from a re-analysis of the deposited data

How the results depend on the processing

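The 200 highest genes held 22.9% of the summed FPKM, and 19.6% where both ranking and share used reads, with 22.7% to 23.2% when 1 library was left out. Listed genes held 12.04% of the sum, 9.96% of reads, 11.8% to 12.4% without 1 library and 4.55% when only checked names were counted. Of the 67 listed genes among the 200 highest, 29 had a checked name, and 63 to 68 were there without 1 library. Detection, 27975 genes above 0, was 11442, 1076 and 35 at means of 10, 100 and 1000 FPKM, and 27148 to 27382 without 1 library. Of the 200 most variable genes, 78 remained with no filter, 79 with a filter at 1 FPKM, 54 with one at 50 FPKM and 76 to 156 without 1 library. The other scalings, pseudocounts and measures kept 173 to 197. Of these, the moment dispersion of recovered reads, at 179, and the counts of checked names only, were chosen after seeing the data. Replicate 3 was lowest for 134 of the 200, for 69 of the 100 and for 293 of the 500 most variable genes.

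No paired analysis was possible because 1 group was described with no test. The edgeR dispersion was planned and not run, and the moment dispersion took its place. With 3 libraries an SD is itself imprecise, the depth per gene limits genes below about 10 FPKM, and near-identical gene copies may exchange reads. Counts of members among the 200 highest changed by over 1.5 times in 4 of 22 lists when ranked by reads. They did so in 7 lists when the 100 highest were taken and in 5 with the 500 highest. When reads replaced FPKM, the share held by a list moved by at least its SD over libraries in 28 of 37 lists.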
